A study of Mus musculus with 6 samples.

Results

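The genes described here are 10 genes that mark macrophages and other leukocytes: Tyrobp, Fcer1g, Ptprc, Csf1r, Cd14, Mrc1, Cd68, Laptm5, Lyz2 and Ctss. They were measured in the autopod (hand and foot plate) of mouse embryos. The rule takes genes by name, and every array probe that carries one of these names in the scanner files was taken, with Lyz2 listed there under its older name Lyzs. This gave 18 of the 41174 probes, and 10 of the 19505 genes that could be named.

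The series holds 6 arrays, 1 for each combination of 3 tissues and 2 genotypes. The tissues were the interzone (the band of cells where a joint will form), growth plate cartilage and interdigital tissue, all at stage E14.5 on a C57BL/6 background. Control embryos were labelled wild type. The mutant littermates were Tgfbr2Prx1KO, a name that by convention stands for removal of Tgfbr2, the type II receptor of TGF-beta, by a recombinase under the Prx1 promoter, which is active in limb mesenchyme. Tissue was cut out by laser from frozen sections of 2 embryos per genotype, and the RNA was amplified as PCR product, of which 250 ng was labelled with Cy3. The labels do not say which embryos or how many cells stand behind an array. With 1 array per group there is no spread between samples, so a difference within a tissue compares 1 array with 1 array, without a test. In captured tissue, fewer leukocytes and less RNA per leukocyte cannot be told apart.

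Macrophages enter the embryonic limb from the circulation and clear dying cells, among them those of the regressing interdigital tissue. Tyrobp and Fcer1g encode membrane adaptors whose cytoplasmic activation motifs pass on signals from Fc and lectin-like receptors. Csf1r is the receptor that macrophages need for survival and growth, Cd14 and Mrc1 bind bacterial lipopolysaccharide and mannose-bearing glycoproteins, and Ptprc is the phosphatase CD45 of nucleated blood cells. Cd68 and Laptm5 encode membrane proteins of the lysosome, Lyz2 encodes the myeloid lysozyme, and Ctss a lysosomal protease. Many myeloid promoters carry purine-rich sites for the transcription factor PU.1, encoded by Spi1.

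RefSeq promoter sequences (GRCm38.p6, from 250 bases before to 50 after the start) were taken by symbol for 7 of these genes, all but Tyrobp, Csf1r and Cd14. The 3 shown belong to Mrc1 and Laptm5, whose levels went up and down together over the arrays, and to Fcer1g, which took another course. They were chosen after the values had been seen. Capitals mark the core GAGGAA, searched on both strands, so that a match on the opposite strand reads TTCCTC. Each sequence runs 5′ to 3′ along its gene.
Mrc1, chr2:14229164-14229463, plus strand: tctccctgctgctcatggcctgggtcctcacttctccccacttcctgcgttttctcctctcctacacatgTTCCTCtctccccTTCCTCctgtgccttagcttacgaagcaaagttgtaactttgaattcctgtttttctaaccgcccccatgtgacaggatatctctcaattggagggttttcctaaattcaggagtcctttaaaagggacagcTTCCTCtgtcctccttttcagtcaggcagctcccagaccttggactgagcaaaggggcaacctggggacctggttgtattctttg
Laptm5, chr4:130913066-130913365, plus strand: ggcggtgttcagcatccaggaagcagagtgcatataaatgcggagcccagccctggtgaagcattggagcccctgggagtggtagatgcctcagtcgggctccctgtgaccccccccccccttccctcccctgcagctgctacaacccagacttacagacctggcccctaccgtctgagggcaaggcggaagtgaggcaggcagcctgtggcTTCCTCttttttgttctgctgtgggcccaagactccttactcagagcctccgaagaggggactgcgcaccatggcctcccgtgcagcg
Fcer1g, chr1:171234300-171234599, minus strand: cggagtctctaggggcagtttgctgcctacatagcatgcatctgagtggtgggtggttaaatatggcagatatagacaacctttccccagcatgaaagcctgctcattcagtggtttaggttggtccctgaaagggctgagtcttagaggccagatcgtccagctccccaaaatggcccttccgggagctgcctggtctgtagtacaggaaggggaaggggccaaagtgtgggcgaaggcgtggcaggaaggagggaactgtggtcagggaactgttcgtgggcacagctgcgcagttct
The core was found 3 times in the Mrc1 window, at 180, 167 and 35 bases before the start, counted to the first base of the match, once in that of Laptm5, 38 bases before the start, and not in the Fcer1g window. It occurred for 5 of the 7 genes (Ptprc, Mrc1, Cd68, Laptm5 and Ctss) against 28.3% of the 32851 promoters of the same length in the table and 31.3% of genes counted over all their start sites. A second motif, AGGAAGT, which can overlap the first by AGGAA, was found in 4 of the 7 (Ptprc, Mrc1, Lyz2 and Ctss) against 9.35% of promoters and 10.7% of genes. For Ptprc, which has 2 start sites in the table, a match in either window was counted. These matches describe letters only and were not related to binding.

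The level of a probe is its log2 signal minus log2 of the 75th percentile signal of its array, so a level of 0 equals that percentile. A gene is represented by its brightest probe, and "not well above background" follows the scanner software's mark. The growth plate control array stood apart, with a median signal of 103 units against 340 to 502 on the others and 72.3% of spots well above background against 77.3% to 88.3%. The growth plate pair has no value without it, and no other growth plate control exists here. The interzone pair lay on slide 1, while the other pairs had their control on slide 1 and their mutant on slide 2, so genotype and slide cannot be told apart for them. Markers bore out the label of the growth plate control, where the summed level of 16 cartilage genes was 758 times the 75th percentile signal against 201 and 117 on the other controls. That sum was 87.1 on the growth plate mutant array, below the 94.6 of the interzone mutant. The sum of 11 interzone genes was highest on the interzone control (58.8 against 35.3 and 20.1), but among mutants it was 21.9 on the interzone array against 15.3 on the growth plate and 27.3 on the interdigital array, so it did not single out the mutant interzone. The 12 interdigital mesenchyme genes likewise did not single out the interdigital control (26.8 against 33.1 and 32.2).

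In mutant interzone most of the 10 genes lay above the control, in mutant growth plate 5 lay at least 2-fold below and 2 above it, and in mutant interdigital tissue most were near or below the control. At a threshold of 2-fold, 6 of 10 were higher and 2 lower in the mutant interzone, where 17.6% of all genes were higher and 25% lower. The median difference of the 10 genes was 1.81 on the log2 scale, beside -0.17 for all genes. In mutant growth plate 2 were higher and 5 lower, beside 25.8% and 31.2% of all genes, with medians of -1.20 and -0.36. In mutant interdigital tissue 1 was higher and 3 were lower, beside 10.7% and 17.1%, with medians of -0.72 and -0.19. The interzone share of higher genes was the one farthest from that of all genes. With normexp background correction 6 were higher and 1 lower there, beside 31.2% and 12% of all genes. With the authors' deposited table of values 2 were higher and 6 lower in growth plate, beside 16.9% and 60.5%. The growth plate median depended on the setting, at -0.10 when both arrays of the pair had to be well above background and -0.30 with the mean over each gene's probes.

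**Figure D1:**
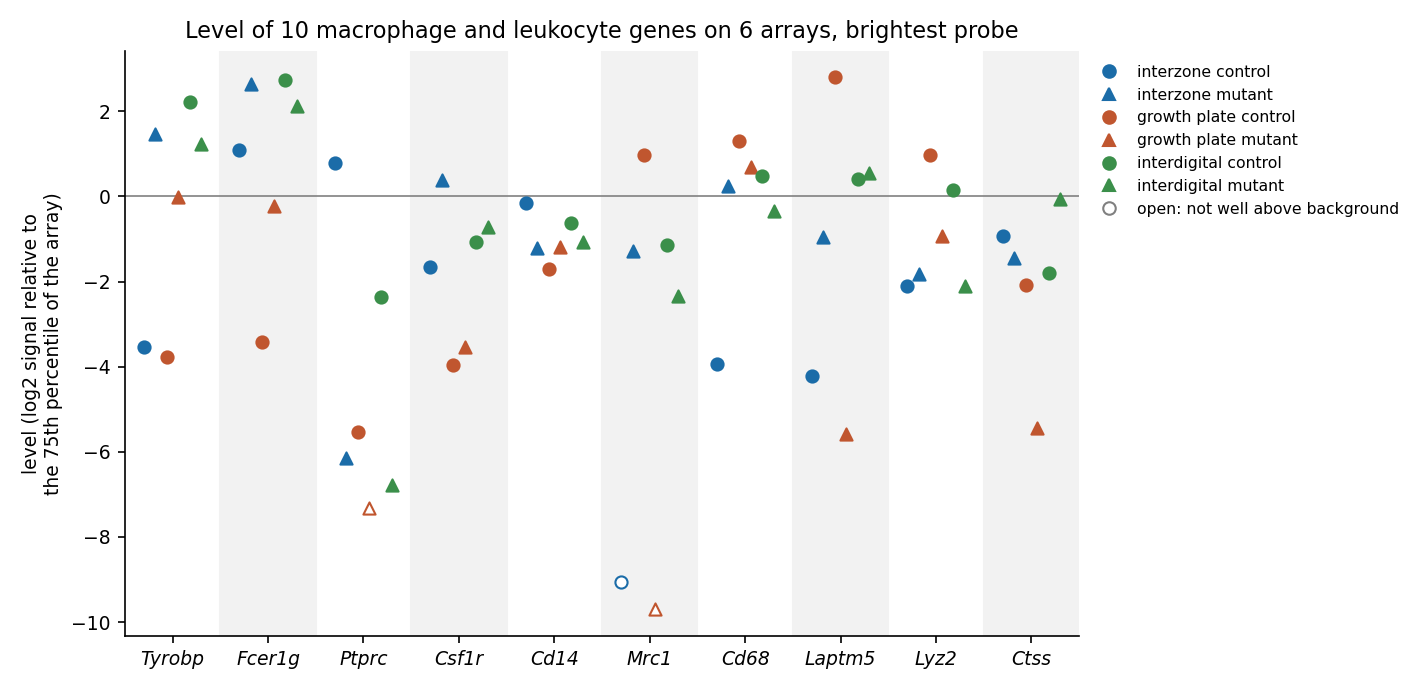
Level of each of the 10 genes (brightest probe, log2 signal relative to the 75th percentile of the array) on the 6 arrays, with circles for control, triangles for mutant, colours for tissue and open symbols where the probe was not well above background. Tyrobp and Fcer1g are lowest on the growth plate control array (-3.77 and -3.41), where Mrc1, Cd68, Laptm5 and Lyz2 are highest (0.97, 1.31, 2.80 and 0.98).

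The adaptor Tyrobp was measured by 1 probe, at chr7:27358831-27360558 in the array annotation, whose build was not stated. Its levels were -3.55 in control and 1.47 in mutant interzone, -3.77 and -0.01 in growth plate, and 2.21 and 1.24 in interdigital tissue. Control interzone and control growth plate were thus low and the other 4 arrays high, from -0.01 to 2.21. In signal units the interzone control read 137 and the interzone mutant 5133. The mutant was 32.3-fold higher in interzone, 13.5-fold higher in growth plate and 1.95-fold lower in interdigital tissue.

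Fcer1g, the gamma chain shared by Fc receptors, followed Tyrobp in the growth plate but was already high in control interzone. Its brightest probe had levels of 1.08 and 2.64 in control and mutant interzone, -3.41 and -0.22 in growth plate, and 2.74 and 2.12 in interdigital tissue. The mutant was 2.95-fold higher in interzone and 9.08-fold higher in growth plate, and 1.54-fold lower in interdigital tissue. A second probe gave 2.94-fold higher, at least 64.4-fold higher and 1.71-fold lower. That probe was not well above background on the growth plate control array, so its fold there is a lower bound. Such bounds set the brighter array against the dim array's detection floor, the lowest level it marked as well above background, or against the probe's own level if that was higher. Both adaptors were therefore lowest on the growth plate control and highest on the interdigital control.

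Genes that work with these adaptors were mixed. Of 19 listed partners (receptors such as Trem2 and the Fc gamma receptors, and kinases downstream), 16 could be measured in the interzone pair, where 1 was higher and 2 lower, with a median of -0.30. In the growth plate pair 2 of 17 were higher and 8 lower (median -0.96), and in the interdigital pair 2 of 17 were higher and 5 lower (median -0.31). Of all genes, 17.6% were higher and 25% lower in interzone, 25.8% and 31.2% in growth plate, and 10.7% and 17.1% in interdigital tissue. These shares are the ones to set beside the counts of every gene list here. The interdigital share of higher partners was near that of all genes. Syk, the kinase recruited by both adaptors, was the 1 partner at least 2-fold higher in interzone, with levels of -5.15 and -2.73 (5.36-fold), and went from -4.20 to -0.07 in growth plate (17.6-fold higher). The inhibitory Fc receptor gene Fcgr2b had levels of -2.42 and -5.97 in growth plate (11.7-fold lower) and -1.26 and -4.28 in interdigital tissue (8.11-fold lower). Plcg2, a phospholipase downstream of Syk, was 9.73-fold lower in the mutant growth plate and 2.76-fold higher in the mutant interdigital array.

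Ptprc took another course. Its brightest probe, at chr1:137952892-137952951 in the array annotation, had levels of 0.78 in control and -6.14 in mutant interzone, -5.53 and -7.32 in growth plate, and -2.36 and -6.79 in interdigital tissue. The control interzone array alone was high, the control interdigital array lay between, and the other 4 were low, with the growth plate mutant not well above background. The mutant level was lower by 121-fold in interzone, by at least 3.44-fold in growth plate and by 21.6-fold in interdigital tissue. Among all genes the interzone difference lay at the 0.138 percentile and the interdigital one at the 0.434 percentile. Control and mutant signals were 2768 and 26.4 units in interzone, and 353 and 19.8 in interdigital tissue. With normexp background correction these log2 differences were -2.61 and -2.66, in place of -6.92 and -4.43. With the mean over the probes of the gene they were -2.38 and -1.54. The fold sizes of Ptprc thus depended on the processing.

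The 3 other Ptprc probes were dim and did not repeat this order. One of them has 10 spots on each array, which shows how far spots scatter. It was well above background at -5.23 in control interzone, -5.62 in control interdigital tissue and -4.74 in mutant growth plate, and not on the other 3 arrays. Where it was well above background, the SD over its spots was 0.29, 0.09 and 0.14 on the log2 scale. On that probe the mutant was at least 2.43-fold lower in interzone, at least 4.52-fold lower in interdigital tissue and at least 3.52-fold higher in growth plate. The last of these goes against the brightest probe, and with the mean over the 4 probes the growth plate difference of Ptprc was 0.16. Of the remaining probes, 1 was well above background on the interdigital control only (-6.15) and the other on the interdigital mutant only (-5.73). The lower level in mutant interzone at the brightest probe was thus matched in direction by 1 other probe, and neither interzone array gave a signal well above background at the remaining 2.

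Csf1r had 3 probes, all well above background on every array. At the brightest, levels were -1.67 and 0.39 in control and mutant interzone, -3.95 and -3.55 in growth plate, and -1.07 and -0.72 in interdigital tissue. All 3 probes were higher in the mutant interzone, by 4.16-fold, 17.5-fold and 3.56-fold. In growth plate they differed by at most 1.5-fold, and in interdigital tissue 2 differed by 1.28-fold and 1.06-fold while the third was 6-fold lower in the mutant. Every Csf1r probe thus placed the mutant interzone array above its control.

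The ligands of Csf1r did not move with it in the interzone. Csf1 had levels of -0.78 and -0.10 in interzone (1.6-fold higher in the mutant), -0.71 and -3.56 in growth plate (7.2-fold lower) and 0.21 and -0.24 in interdigital tissue (1.37-fold lower). Il34, the other ligand, differed by less than 2-fold in all 3 pairs. Of 12 genes listed as ligands of Csf1r or as related receptors and signal transducers, 1 was higher and 4 were lower in interzone, 0 of 11 higher and 6 lower in growth plate, and 0 of 12 higher and 1 lower in interdigital tissue. The shares of all genes higher and lower were 17.6% and 25%, 25.8% and 31.2%, and 10.7% and 17.1% in these pairs. Among them the ubiquitin ligase gene Cbl, which acts on the activated receptor, was 3.23-fold lower in the mutant interzone and 19-fold lower in the mutant growth plate.

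Cd14 varied least of the 10 genes, with a range of 1.55 on the log2 scale over the 6 arrays. Levels were -0.16 and -1.21 in control and mutant interzone, -1.70 and -1.18 in growth plate, and -0.63 and -1.07 in interdigital tissue. The mutant interzone was 2.08-fold lower, just past the threshold, and with normexp background correction the difference was -0.67 and no longer passed. The toll-like receptors and adaptors that act with Cd14 took another course. Of 8 measured in the interzone pair, 6 were higher and 1 lower, with a median of 2.04, among them the adaptor Tirap (5.55-fold), the kinase Irak4 (12-fold) and the RNA sensor Tlr7 (4.16-fold). Tlr4, also listed, was well above background on the interdigital control array only, so it is not among these 8. Irak4 was also higher in the mutant growth plate (11-fold) and interdigital arrays (9.33-fold). The largest absolute differences of Tirap and Tlr7, 3.70 and 3.42 on the log2 scale, did not lie in the interzone pair. Tlr7 was not well above background on the growth plate mutant array. In growth plate 2 of 8 were higher and 4 lower, and in interdigital tissue 1 of 10 was higher and 5 lower (median -1.62).

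Mrc1, the mannose receptor CD206 of tissue macrophages, had the widest range, 10.7 on the log2 scale. Its single probe lies at chr2:14281098-14281158 in the array annotation. Levels were -9.07, not well above background, in control interzone and -1.27 in mutant interzone, 0.97 in control growth plate and -9.70, not well above background, in mutant growth plate, and -1.15 and -2.35 in interdigital tissue. In signal units these were 3 and 769, 2163 and 2.44, and 820 and 432. Mutant against control, Mrc1 was higher by at least 53.7-fold in interzone, lower by at least 357-fold in growth plate and lower by 2.3-fold in interdigital tissue. Only the control interzone and the mutant growth plate arrays lacked a signal of Mrc1 well above background.

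Laptm5 followed Mrc1. At its brightest probe, chr4:130149289-130149348 in the array annotation, levels were -4.23 and -0.94 in control and mutant interzone, 2.80 and -5.59 in growth plate, and 0.41 and 0.56 in interdigital tissue. The mutant was 9.74-fold higher in interzone, 335-fold lower in growth plate and 1.11-fold higher in interdigital tissue. A second probe was at least 449-fold lower in the mutant growth plate and 1.1-fold higher in the mutant interdigital array. Neither interzone array was well above background at that probe, with 4.32 units in control and 9.36 in mutant. The brightest probe read 85.8 and 966 there. On the control and mutant interdigital arrays the second probe read 912 and 1210 units beside 2406 and 3227. It thus did not repeat the rise in mutant interzone, and the interzone difference of Laptm5 rests on 1 probe of 2.

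The other genes of the lysosome differed in where they were high. Cd68 was low on the control interzone array alone, at -3.94, with 0.25 in mutant interzone, 1.31 and 0.70 in control and mutant growth plate, and 0.48 and -0.35 in interdigital tissue. It was 18.3-fold higher in the mutant interzone and within 2-fold in the other pairs. Lyz2 had levels of -2.11 and -1.81 in interzone, 0.98 and -0.92 in growth plate, and 0.16 and -2.10 in interdigital tissue. Lyz2 was thus higher on the growth plate and interdigital controls than on their mutants, by 3.73-fold and 4.79-fold, and differed by 1.23-fold in interzone. Its dimmer probe gave 14.9-fold and 16.5-fold lower in these mutants. Lyz2 has a close copy, Lyz1, and whether a probe reads both is uncertain. Lyz1 was lower in mutant interdigital tissue too, at -1.19 and -3.98 (6.91-fold). In interzone it was higher in the mutant by at least 5.5-fold, and in growth plate, where Lyz2 was lower, by at least 1.29-fold.

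Ctss, the protease that trims the invariant chain of class II molecules, went its own way. Levels were -0.92 and -1.45 in control and mutant interzone, -2.07 and -5.45 in growth plate, and -1.80 and -0.06 in interdigital tissue. The mutant was 1.45-fold lower in interzone, 10.4-fold lower in growth plate and 3.34-fold higher in interdigital tissue. It was the only one of the 10 genes at least 2-fold higher in the mutant interdigital array. Among the other lysosomal genes of phagocytes, 2 of 17 measured were higher and 2 lower in interzone, 1 of 18 higher and 6 lower in growth plate, and 3 of 18 higher and 2 lower in interdigital tissue. Ctsc, a protease that activates granule enzymes, was higher in each of the 3 mutant arrays, by 4.69-fold, 3.71-fold and 2.3-fold. Hexa, which breaks down gangliosides, was 3.69-fold and 6.91-fold lower in the mutant interzone and growth plate.

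**Figure D2:**
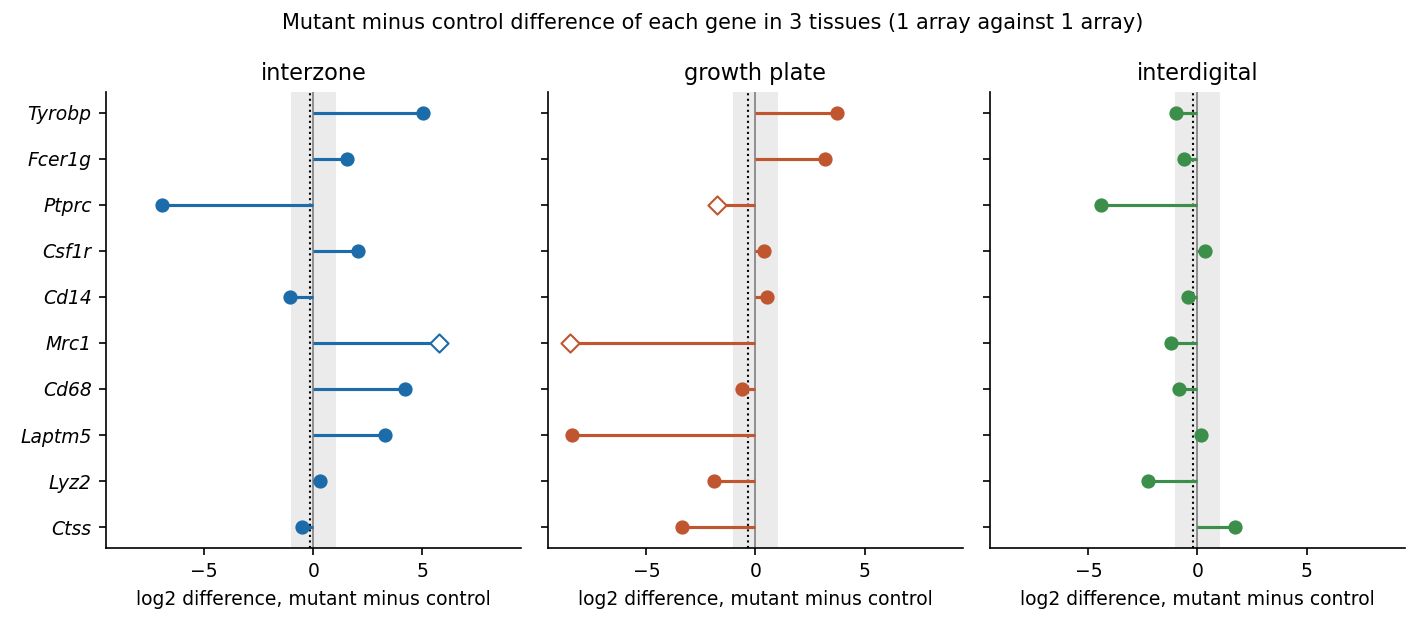
Log2 difference of each gene, mutant minus control, in 3 panels for the tissues, with a grey band for less than 2-fold, a dotted line at the median of all genes and open diamonds for bounds. In interzone 6 genes lie right of the band and Ptprc far left (-6.92), in growth plate Mrc1 (-8.48) and Laptm5 (-8.39) lie farthest left, and in interdigital tissue 6 genes lie inside the band.

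Counted by probe, the picture was the same in direction. In the interzone pair 9 of 15 measured probes were higher and 3 lower, beside 20.8% and 27.6% of all probes. In the growth plate pair 4 of 16 were higher and 7 lower, beside 32.5% and 28.8%. In the interdigital pair 2 of 18 were higher and 7 lower, beside 12.9% and 21.4%. Probes of 1 gene often disagreed across the whole array. This was counted only for genes whose 2 brightest probes were well above background on both arrays, 6310 in interzone. Of these, 2430 were past 2-fold in the interzone at the brightest probe, and the next probe had the same sign in 61.7%. This share was 60.7% in growth plate and 68.2% in interdigital tissue. The next probe was itself past 2-fold the same way in 38.7%, 41.5% and 36.3%. Repeat spots of 1 probe scattered far less, with a median SD of 0.07 to 0.10 on the log2 scale over probes with 10 spots.

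Over the 3 tissues together, genotype could be tested with tissue as a block, which leaves 2 residual degrees of freedom. The residual is how far the difference between genotypes varied from tissue to tissue. It is not a spread between embryos, since all tissues came from 2 embryos per genotype. In the growth plate and interdigital pairs, genotype also cannot be told apart from slide. In this limma fit, 0 of the 10 genes passed an adjusted p of 0.05, as did 0% of the 18820 genes tested, and 1262 of all genes and 1 of the 10 had an unadjusted p under 0.05. That gene was Ptprc, at its brightest probe lower in the mutant in 3 of 3 tissues, with a mean difference of -4.38 ± 1.12 (SE) on the log2 scale and an adjusted p of 0.669 by limma. On the growth plate mutant array that probe was not well above background, and another Ptprc probe was at least 3.52-fold higher than in control. Tyrobp had a mean difference of 2.60 ± 1.34, with 2 of 3 tissues higher. For Mrc1 it was -1.36 ± 3.72, with 1 of 3 tissues higher and 2 lower. Levels not well above background entered this fit as measured.

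**Figure D3:**
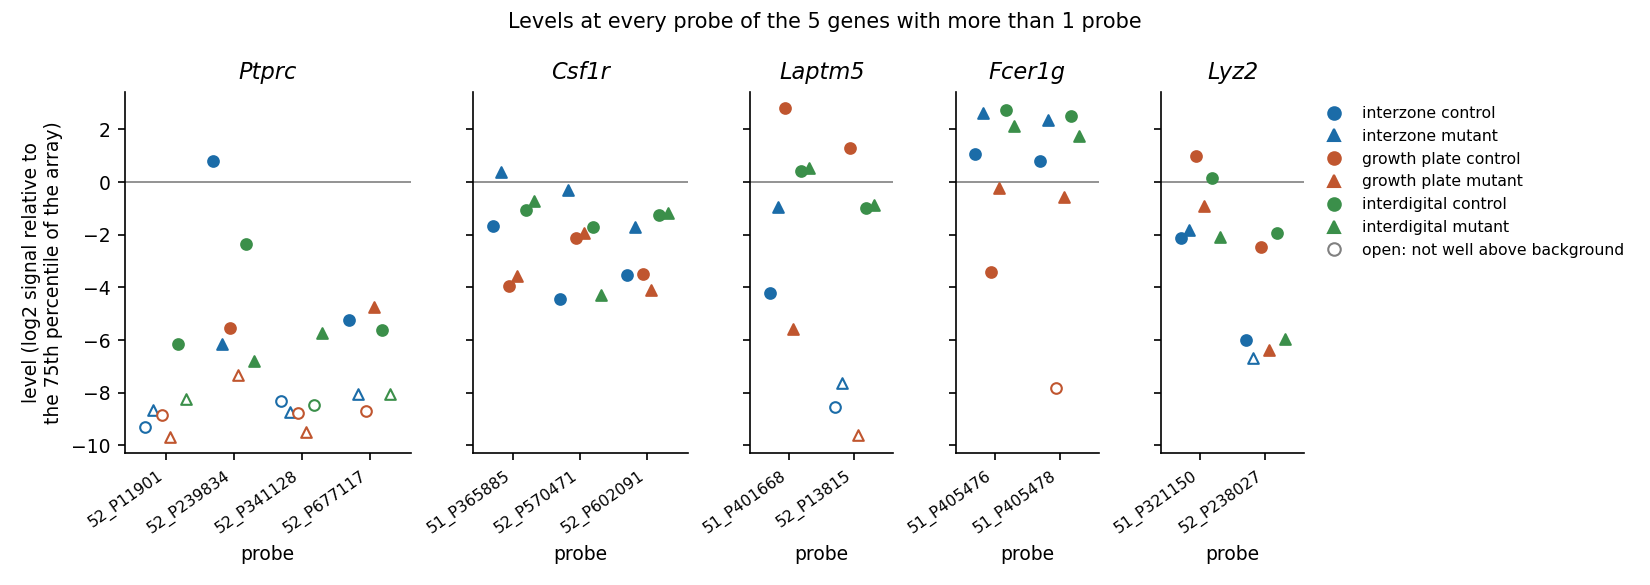
Levels (log2 signal relative to the 75th percentile of the array) on the 6 arrays at every probe of the 5 genes with more than 1 probe, with probes named by their identifier without its leading letter and open symbols where the probe was not well above background. Both Fcer1g probes rank the arrays in 1 order, while the high control interzone level of Ptprc (0.78) stands on 1 of its 4 probes.

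Between tissues of control embryos, the genes were mostly higher in interdigital tissue than in the interzone. There 6 of 10 were higher and 1 lower, beside 16.1% and 15.3% of all genes, with a median of 1.97 beside -0.05. Mrc1 was at least 58.7-fold, Tyrobp 54.1-fold, Laptm5 24.8-fold, Cd68 21.4-fold, Lyz2 4.83-fold and Fcer1g 3.17-fold higher, and Ptprc 8.85-fold lower. Against control growth plate, 5 were higher in control interdigital tissue and 2 lower, beside 29.4% and 22.7%, with Fcer1g 71.2-fold and Tyrobp 62.9-fold higher and Laptm5 5.25-fold lower. With the authors' deposited table these counts were 4 and 5. Control growth plate against control interzone split the genes, with 4 higher and 5 lower beside 22.2% and 29.3%. The balance depended on scaling, with 5 higher and 2 lower after quantile normalization and 5 and 3 with the authors' deposited table. Laptm5 was 130-fold, Cd68 38.1-fold, Lyz2 8.52-fold and Mrc1 at least 254-fold higher in the growth plate, and Ptprc 79.8-fold and Fcer1g 22.5-fold lower. These comparisons share arrays with each other and with the mutant pairs.

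In mutant embryos, interdigital tissue had 2 genes higher and 2 lower than interzone, beside 20.2% and 17.6% of all genes, which is close to the same share, and the other 6 lay within 2-fold. The largest of these differences was 2.83-fold, for Laptm5. Mutant growth plate was the low tissue, with 0 genes higher and 7 lower than mutant interzone, beside 19.5% and 21.8%, and a median of -2.17. Mrc1 was at least 75.5-fold, Laptm5 25-fold, Ctss 16-fold and Csf1r 15.3-fold lower there. Against mutant growth plate, mutant interdigital tissue had 6 genes higher and 2 lower, beside 18% and 13.3%. Cd14 differed by 1.02-fold to 1.11-fold in these comparisons.

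The 10 genes differed more between arrays than most genes, and in different ways. Their median range over the 6 arrays was 5.68 on the log2 scale beside 2.47 for all genes, and 9 of 10 lay above the latter. The highest array was the growth plate control for 4 genes (31.8% of all genes), the interzone and interdigital controls for 2 each (19.1% and 11.9%), the interzone and interdigital mutants for 1 each (16.4% and 9.08%), and the growth plate mutant for 0 (11.8%). The lowest was the growth plate control for 4 (23%), the growth plate mutant for 4 (24.2%) and the interzone control for 2 (10.8%). It was the interdigital control, the interzone mutant or the interdigital mutant for 0 (6.96%, 17.3% and 17.8% of all genes). The array that stood apart was thus an extreme for 8 of the 10 genes at this scaling. The lowest array stayed the same for 5 of 10 genes after quantile normalization, 6 with the authors' deposited table and 6 with normexp, and the highest for 10, 9 and 10. With 1 array per group, no neighbours in these orders can be checked against a spread between samples.

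Over the 45 pairs of these genes, Pearson's r of levels on the 6 arrays had a median of 0.13 and was below 0 for 18. It ran from -0.84 for Cd14 with Cd68 to 0.96 for Mrc1 with Laptm5. Levels not well above background entered r as measured, among them those of Mrc1 on the control interzone and mutant growth plate arrays. Tyrobp correlated with Mrc1, Cd68 and Laptm5 at 0.21, 0.38 and 0.05, and over the 5 arrays other than the growth plate control at 0.80, 0.90 and 0.70. Mrc1 with Laptm5 stood at 0.95 over those 5. The genes most like Tyrobp among 17546 well above background on at least 4 arrays were Zfp790 (0.992), Ebf3 (0.988), Bnc2 (0.986), Ccdc91 (0.985) and Lgi2 (0.985), and 160 genes exceeded 0.9. Ptprc had the lowest r with Tyrobp (-0.38), while over the 5 arrays it stood at -0.61 and Cd14 was lowest at -0.67. By the 6 arrays, the genes most like Ptprc were Aspdh (0.997), Nlrp4a (0.995), 4930433N12Rik (0.994), Krtap3-1 (0.989) and Cyp2a4 (0.986). None of the 10 genes was among these. The points are few and share slides and amplification, so these values only describe the arrays.

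Other genes of the macrophage lineage split in the same uneven way. The list of 18 macrophage identity and receptor genes had 8 of 16 higher and 2 lower in the interzone pair (median 0.98), 2 of 16 higher and 8 lower in growth plate (median -0.84), and 1 of 18 higher and 4 lower in interdigital tissue (median -0.48). Adgre1, which encodes the macrophage marker F4/80, had levels of -2.28 and 0.15 in interzone (5.37-fold higher in the mutant), -0.02 and -3.65 in growth plate (12.4-fold lower), and -1.24 and -2.08 in interdigital tissue. Aif1, encoding the macrophage actin-binding protein Iba1, was 12.8-fold and 6.97-fold higher in the mutant interzone and growth plate. Msr1, a scavenger receptor gene, was 30.3-fold higher in the mutant interzone and 3.92-fold and 3.94-fold lower in the other mutants. Cd52, which encodes a small leukocyte surface protein, was highest on the growth plate control (2.36) and 260-fold lower in that mutant. Unlike these genes, Cd52 was also lower in the mutant interzone, at -2.32 and -4.77 (5.45-fold). Itgam, the integrin chain CD11b, and Spi1 stayed within 2-fold in all 3 pairs, with Spi1 at -4.42 and -4.55, -4.79 and -5.11, and -3.08 and -2.75. Cx3cr1, the fractalkine receptor gene, differed by 1.02-fold in interzone and was 2.25-fold lower in the mutant growth plate.

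Among myeloid transcription factors, 3 of 12 were higher and 1 lower in interzone, 2 higher and 5 lower in growth plate, and 2 higher and 0 lower in interdigital tissue. Irf8, needed for monocyte and macrophage development, had levels of -3.70 and 1.79 in interzone (44.8-fold higher in the mutant) and -4.20 and -2.22 in growth plate (3.93-fold higher). Tfec was high on the growth plate control (2.16) and 41.5-fold lower in that mutant. Of 10 genes of resident and fetal macrophages, 2 of 8 were higher and 2 lower in interzone, 1 of 8 higher and 3 lower in growth plate, and 0 of 10 higher and 5 lower in interdigital tissue. Stab1, a scavenger receptor gene, was 13.5-fold higher in the mutant interzone and 7.38-fold lower in the mutant growth plate, and Lyve1, shared with lymphatic endothelium, was 20-fold lower in the mutant interdigital array.

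Genes for taking up dying cells and for complement were uneven too. Beside their counts stand 17.6% of all genes higher and 25% lower in interzone, 25.8% and 31.2% in growth plate, and 10.7% and 17.1% in interdigital tissue. Of the engulfment genes, 6 of 21 were higher and 3 lower in interzone, 4 of 22 higher and 11 lower in growth plate, and 1 of 22 higher and 4 lower in interdigital tissue. Elmo1, which links receptors to the cytoskeleton during uptake, was low on the growth plate control (-6.15) and 81.9-fold higher in that mutant. Of 11 complement genes, 4 were higher and 1 lower in interzone, 2 higher and 5 lower in growth plate, and 1 higher and 6 lower in interdigital tissue. The C1q chains, made by macrophages, were all higher in the mutant interzone, C1qa 5.67-fold, C1qb 5.8-fold and C1qc 2.07-fold. In the mutant interdigital array C1qa was 3.05-fold lower and C1qc was lower too, with C1qb at 1.08-fold. The largest absolute difference of C1qc, 2.92 on the log2 scale, did not lie in interzone. The growth plate differences of the C1q chains are not given here.

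Antigen presentation genes of class II, served by Ctss, did not follow the interzone increase. Of 10, 0 were higher and 3 lower in interzone, 1 higher and 6 lower in growth plate, and 0 higher and 5 lower in interdigital tissue. The shares of all genes were 17.6% and 25%, 25.8% and 31.2%, and 10.7% and 17.1%. The interzone share of lower class II genes was thus near that of all genes. Ciita, their master regulator, was 11.1-fold, 4.18-fold and 3.61-fold lower in the 3 mutants, and the costimulatory genes Cd80 and Cd83 were 12.2-fold and 17.3-fold lower in the mutant interzone. Like Ptprc, these 3 genes were highest on the interzone control array. Of 22 leukocyte-wide genes, 6 were higher and 1 lower in interzone, 2 higher and 6 lower in growth plate, and 0 higher and 3 lower in interdigital tissue. The actin bundling gene Lcp1 had levels of -5.69 and 0.75 in interzone, 86.7-fold higher in the mutant. Over the 153 genes of these 11 lists, 34 of 144 were higher and 21 lower in interzone (median -0.01), 17 of 146 higher and 65 lower in growth plate (median -0.74), and 11 of 151 higher and 37 lower in interdigital tissue (median -0.34). In the interzone this wider set thus lay nearer to all genes than the 10 genes did.

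**Figure D4:**
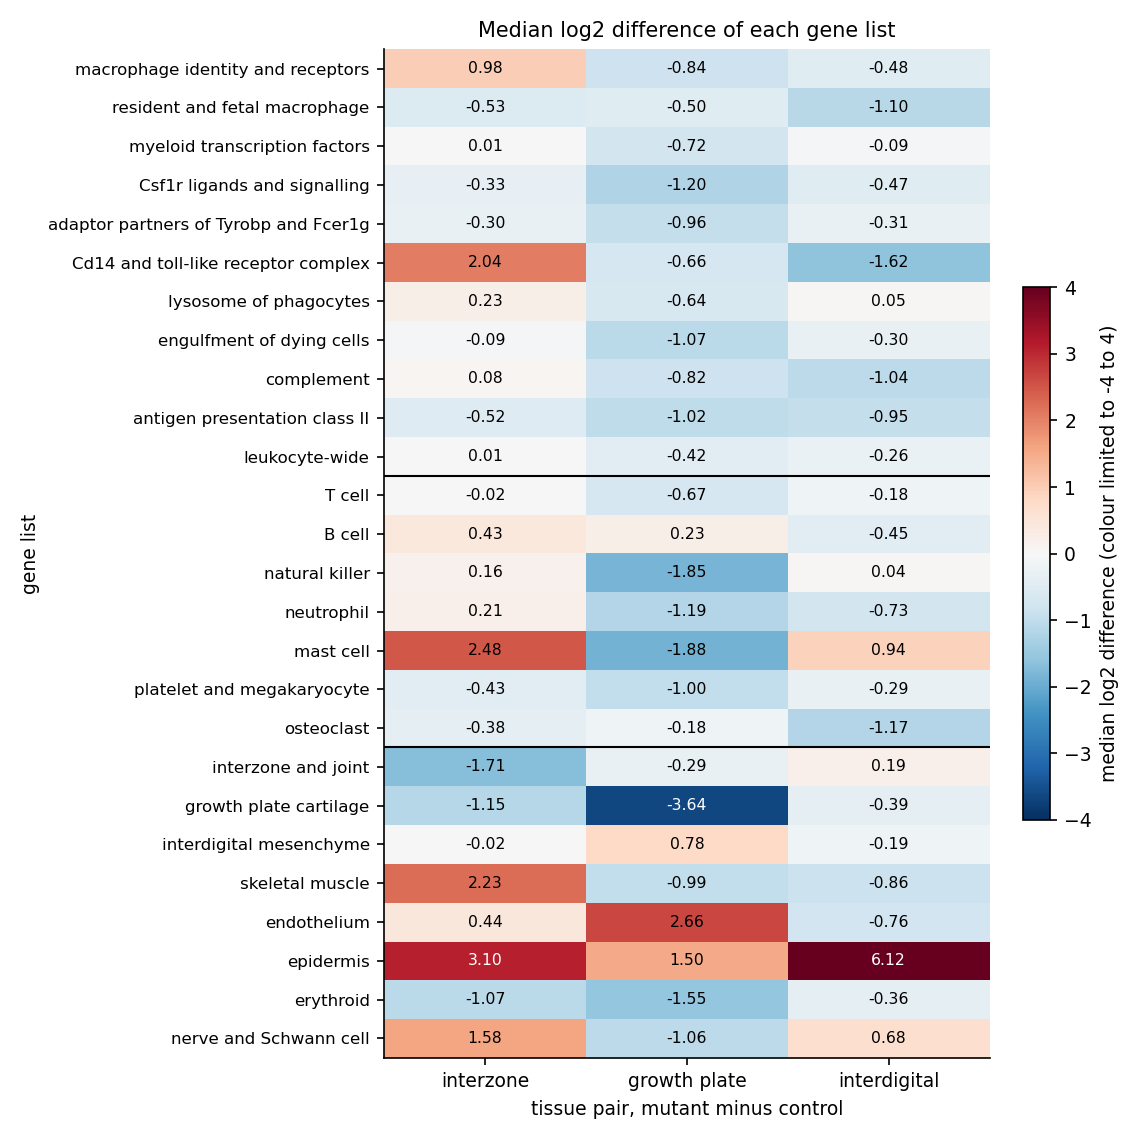
Median log2 difference, mutant minus control, of each gene list (rows) in each tissue pair (columns), with colour limited to the range from -4 to 4 and lines between macrophage and myeloid lists, lists of other blood cells, and tissue and other cell lists. In interzone the Cd14 and toll-like receptor list (2.04), mast cell (2.48), skeletal muscle (2.23) and epidermis (3.10) are higher, and in growth plate all 11 macrophage and myeloid lists are below 0, where the median of all genes was -0.36.

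Markers of other leukocytes that can express some of the 10 genes were also listed. Among all genes, 17.6% were higher and 25% lower in interzone, 25.8% and 31.2% in growth plate, and 10.7% and 17.1% in interdigital tissue. Mast cell genes, whose cells use Fcer1g, were higher in the mutant interzone (3 of 5, 0 lower, median 2.48) and lower in the mutant growth plate (0 of 5 higher, 4 lower, median -1.88). Hdc, the histamine-forming enzyme, had levels of -6.51 and 0.99 in interzone (181-fold), and Cpa3, a mast cell protease, was at least 75.6-fold higher there. The summed level of these genes was 2.53 on the interzone control against 11.3 on its mutant, 44.7 and 10 in growth plate, and 6.58 and 22.1 in interdigital tissue. Neutrophil genes had 0 of 9 higher and 2 lower in interzone, 1 of 9 and 5 in growth plate, and 0 of 10 and 2 in interdigital tissue. Osteoclast genes had 0 of 9 higher and 2 lower, 1 of 9 and 2, and 0 of 10 and 7. T cell genes had 1 of 10 higher and 2 lower, 2 and 1, and 2 and 1, with Lck, like Ptprc, highest on the interzone control (-0.09) and 13.5-fold lower in its mutant. B cell genes had 2 of 7 higher and 0 lower, 2 and 2, and 0 and 1, natural killer genes 1 of 4 and 1, 1 of 5 and 3, and 0 of 4 and 0, and platelet genes 2 of 8 and 2, 2 of 9 and 4, and 2 of 9 and 2.

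Markers of tissues outside the blood moved between the same arrays. In the interzone pair the skeletal muscle list had 8 of 11 higher and 0 lower, with summed levels of 19.0 for control and 49.3 for mutant, and Myf5 not well above background on any array. Epidermis genes were higher in 11 of 12 and lower in 0 there (24.1 and 218), with 8 of 12 and 0 in growth plate (107 and 230) and 12 of 12 and 0 in interdigital tissue (9.77 and 188), and Cdh1 and Trp63 not well above background on the growth plate and interdigital controls. Endothelium genes had 4 of 12 higher and 3 lower in interzone, 7 and 1 in growth plate (summed levels 9.92 and 13.4), and 0 and 4 in interdigital tissue, and nerve and Schwann cell genes 5 of 9 and 1, 3 of 9 and 5, and 3 of 9 and 0. Erythroid genes, a sign of blood in the cut tissue, had 0 of 8 higher and 4 lower in interzone, 1 and 7 in growth plate, and 1 and 1 in interdigital tissue. The part of these tissues in the differences of the 10 genes was not tested.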

How the data were processed

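The members and gene lists were chosen with earlier results of these data known. Spot intensities deposited by the authors were background-subtracted by Agilent Feature Extraction 9.5.1.1, per the file headers. The deposited value table held each array's processed signal as a linear ratio to its array median, found by setting it against the scanner values. Control and outlier spots were left out (75 to 123 outlier spots per array), spots of a probe were averaged, and log2 of the authors' processed signal was centred on each array's 75th percentile. No spot was saturated. Of the probes, 22939 were named by accession, 6653 by symbol and 3109 by older symbol through RefSeq (GRCm38.p6). The 18 probes of the members were taken by their name in the scanner files, and 8455 probes had no match. A gene was counted in a pair if well above background on at least 1 array, and called at 2-fold, bounds included.

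No p-value was computed within a tissue, with 1 array per group, and the number of arrays limits the precision. Over the tissues, genotype was tested with limma and Benjamini-Hochberg adjustment, tissue being a block, a fit chosen after seeing the data. The 26 lists held 319 entries, 305 different genes, 301 of them on the array. All members and 10 lineage genes (Spi1, Adgre1, Itgam, Cx3cr1, C1qa, C1qb, C1qc, Aif1, Csf1 and Il34) could be named, up to 4 genes per list with the largest difference, and the 5 genes most like Tyrobp and most like the member farthest from it. Few of the list genes are named, for length. Some genes that the rule would have named are not reported here. Alternatives were normexp background correction with offset 50 (limma 3.58.1), the deposited table, quantile normalization, a percentile over probes well above background on all arrays, the mean over probes, no filter on dim probes, both arrays well above background, and a 4-fold threshold. The steps were tested on simulated data. Groups came from the titles. The descriptions of 5 samples named another material, against their titles and other labels.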

Additional observations from a re-analysis of the deposited data

Results flagged for a closer look

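Mrc1, Laptm5 and Ctss differed from control in opposite directions in different tissues, and the difference between tissues was not tested, since each pair holds 1 array per genotype. For Mrc1 the log2 difference, mutant minus control, was 5.75 in interzone, -8.48 in growth plate and -1.20 in interdigital tissue, the first 2 being bounds. For Laptm5 it was 3.28 in interzone and -8.39 in growth plate. For Ctss it was -3.38 in growth plate and 1.74 in interdigital tissue. The growth plate values rest on the control array with the lowest median signal.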

How the results depend on the processing

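Of 180 alternative values for the 30 differences of single genes, 168 kept their direction and their side of 2-fold. Of the others, 2 fell below 2-fold, 2 passed it, 7 small ones moved and 1 reversed: Ptprc in growth plate, at 0.16 with the mean over probes. Part of the 168 could not change. Without the filter on dim probes, a difference measured on both arrays stays the same. The mean over probes also leaves such a difference the same for a gene with 1 probe. The growth plate median of the 10 genes, -1.20, was -0.83 with the percentile over probes well above background on all arrays, -0.71 with normexp, -0.30 with the mean over probes and -0.10 with both arrays well above background. With both arrays required, 3 genes were lower there in place of 5, and 3 at 4-fold. In interzone 1 gene was lower in place of 2 at 4-fold, with the deposited table and with normexp, and in interdigital tissue 0 were higher in place of 1 at 4-fold. Scaling moved all genes too. With normexp the all-gene median in interzone turned from -0.17 to 0.32, and the share of higher genes among those called went from 41.2% to 72.2%. With the deposited table the all-gene median in growth plate went from -0.36 to -1.50, and that share from 45.3% to 21.8%. In interdigital tissue that share was 49.8% with the deposited table and 49.4% with quantile normalization, in place of 38.4%. In interzone it was 51.4% with the deposited table, and in growth plate 57.7% with the percentile over probes well above background on all arrays and 59.3% at 4-fold. The median of the 10 genes minus that of all genes stayed between 1.29 and 2.02 in interzone. It lay between -0.84 and 0.33 in growth plate. The cause of these shifts was not tested. Tissue as a block gave the fit over the 3 tissues, added after seeing the data, in which 0 of the 10 genes passed.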
